A study of Mus musculus with 15 samples.

Results

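The CDK inhibitors described here are 5 genes, Cdkn1a, Cdkn1b, Cdkn1c, Cdkn2c and Cdkn2d, read by every probe set whose platform gene symbol is one of them. They had 7 probe sets among the 45101 of the table: 2 each for Cdkn1a and Cdkn1b and 1 each for Cdkn1c, Cdkn2c and Cdkn2d. RNA was measured on 15 arrays, 1 per sample, in LSK cells of C57BL6 mice. LSK cells are bone marrow cells without lineage markers that carry Sca1 and Kit, and hold the blood stem cells and early progenitors. All groups, wild type included, were transduced with the retrovirus MSCV-Cre-IRES-GFP, and the GFP+ cells were sorted after culture in medium that held stem cell factor, thrombopoietin and Flt3 ligand.

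The groups differ in the genotype of Apc, whose protein holds together the machinery that degrades beta-catenin. They are wt/wt (6 arrays, titled WT), 15lox/1572T (3, titled T1572), 15lox/1638N (3, titled N1638) and 15lox/15lox (3, titled KO). The 15lox allele is the floxed one, on which Cre acts, while 1572T and 1638N are hypomorphic alleles. No source used here gives the age of the mice or says that replicates were separate animals. Within each mutant group sex-linked genes differed between arrays, as given below, so its arrays did not all come from the same animal. Wild-type arrays 4 to 6 were alike in these genes. The spread behind each p-value is that of these samples and may be technical in part. The design addresses how blood-forming cells respond to graded Wnt signalling.

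CDK inhibitors bind cyclin-dependent kinases and slow the cell cycle. The Cip/Kip members p21 (Cdkn1a), p27 (Cdkn1b) and p57 (Cdkn1c) bind several cyclin and kinase complexes, whereas the INK4 members p18 (Cdkn2c) and p19 (Cdkn2d) bind Cdk4 and Cdk6 and keep D-type cyclins away. In mice p57 and p27 are known for holding blood stem cells in quiescence, p21 for arrest after p53 activation, and p18 for limiting stem cell self-renewal.

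Wild-type arrays 4 to 6 served as the control, because wild-type arrays 1 to 3 are not independent of them. At 96.8% of probe sets the means of these 2 sets lay within 0.05 of each other, against 20.4% to 26.4% for all other pairs of sets of 3 arrays. At 18.2% of probe sets arrays 1 to 3 held 3 equal values, and in the other sets this was the case for at most 0.0177%. Array medians ran from 6.65 to 6.84. The 12 arrays used were fitted together with limma, and a probe set counts as called at an adjusted p (Benjamini-Hochberg over all 45101 probe sets) under 0.05. The level of 3 Y-linked genes was low (4.21 to 4.53) on 15lox/15lox arrays 2 and 3, 15lox/1572T array 1 and 15lox/1638N array 3. It was high (8.85 to 9.19) on the other arrays of the mutant groups and on wild-type arrays 4 to 6. The X-linked gene Xist ran the other way, at 13.75 to 14.02 on the former arrays and 7.50 to 7.98 on the latter. No control array was among the former, so the groups are not balanced in these sex-linked genes. The progenitor genes Kit (10.75 to 11.54), Cd34 (13.26 to 13.61) and Flt3 (12.01 to 12.84) were bright on all 12 arrays. The Wnt feedback gene Axin2 read 11.94 to 12.29 in 15lox/15lox, 11.10 to 11.51 in 15lox/1638N and 7.69 to 9.32 in 15lox/1572T, against 7.26 to 7.57 on wild-type arrays 4 to 6.

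None of the 7 CDK inhibitor probe sets was called in any of the 6 comparisons between groups (limma). Against wild type, 0 of 7 were called in 15lox/15lox, where 1.49% of all probe sets were called. The count was 0 of 7 in 15lox/1638N against 1.38% of all, and 0 of 7 in 15lox/1572T against 0.0288%. At these background shares a count of 0 among 7 is not a result particular to the CDK inhibitors. At an unadjusted p under 0.05 there was 1 of 7 in 15lox/15lox (10.2% of all probe sets), 1 of 7 in 15lox/1638N (16.0%) and 0 of 7 in 15lox/1572T (6.84%). No member ranges parted between 15lox/15lox and wild type, where 17.4% of all probe sets had group ranges that do not overlap. Between mutant groups 0 of 7 were called each time, with 0.186% of all probe sets called for 15lox/15lox against 15lox/1638N, 1.00% for 15lox/15lox against 15lox/1572T and 0.171% for 15lox/1638N against 15lox/1572T.

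Every observed difference from wild type was smaller than the one needed for a call. With its own SE, a member probe set needed a difference of 0.69 to 1.22 on the log2 scale (1.61-fold to 2.34-fold) to be called in 15lox/15lox against wild type. That need was 0.70 to 1.24 in 15lox/1638N and 1.14 to 2.02 in 15lox/1572T. The observed differences from wild type ran from -0.54 to 0.16 in 15lox/15lox, from -0.55 to 0.38 in 15lox/1638N and from -0.38 to 0.05 in 15lox/1572T. Their 95% confidence intervals, each for a single probe set and not a joint bound, together spanned -1.08 to 0.70, -1.14 to 0.88 and -0.78 to 0.53. The median over the 7 probe sets was -0.12, -0.39 and -0.12, beside medians over all probe sets of -0.03, 0.00 and -0.01. Of the 7 values 4 lay below 0 in 15lox/15lox, 6 in 15lox/1638N and 6 in 15lox/1572T. Cdkn1a and Cdkn1b enter these counts with 2 probe sets each. In bulk RNA a lower level per cell and fewer cells of a type that expresses the gene cannot be told apart.

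**Figure D1:**
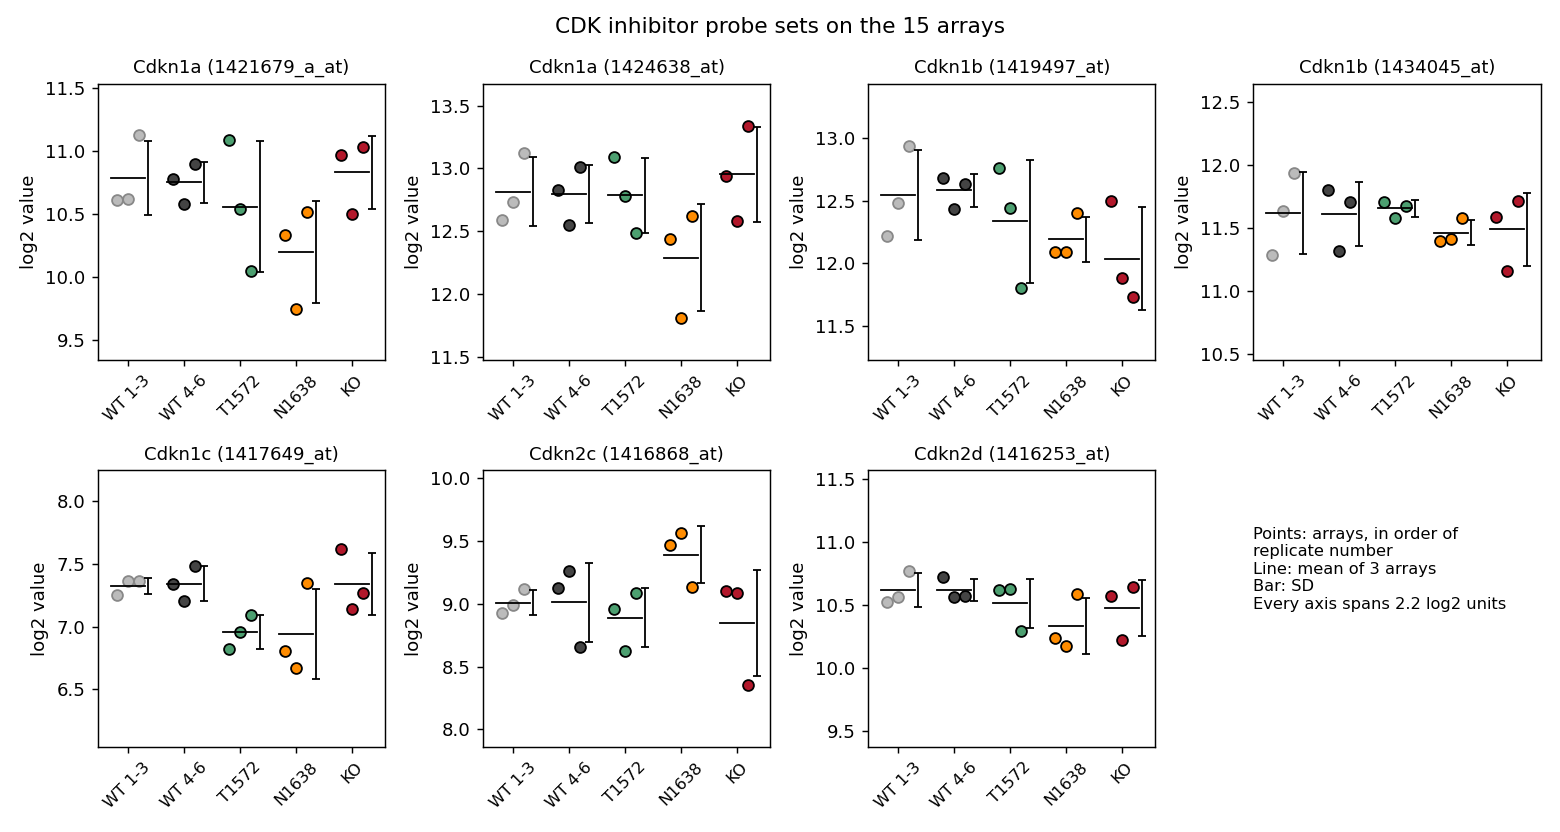
Log2 value (y axis) of each of the 7 CDK inhibitor probe sets on each of the 15 arrays, by group (x axis), with the mean of 3 arrays (line) and the SD (bar beside it). The mutant groups overlap the wild-type arrays in nearly every panel; 15lox/1638N lies lower for Cdkn1a and 15lox/1572T lies lower for Cdkn1c, neither past the test.

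**Figure D2:**
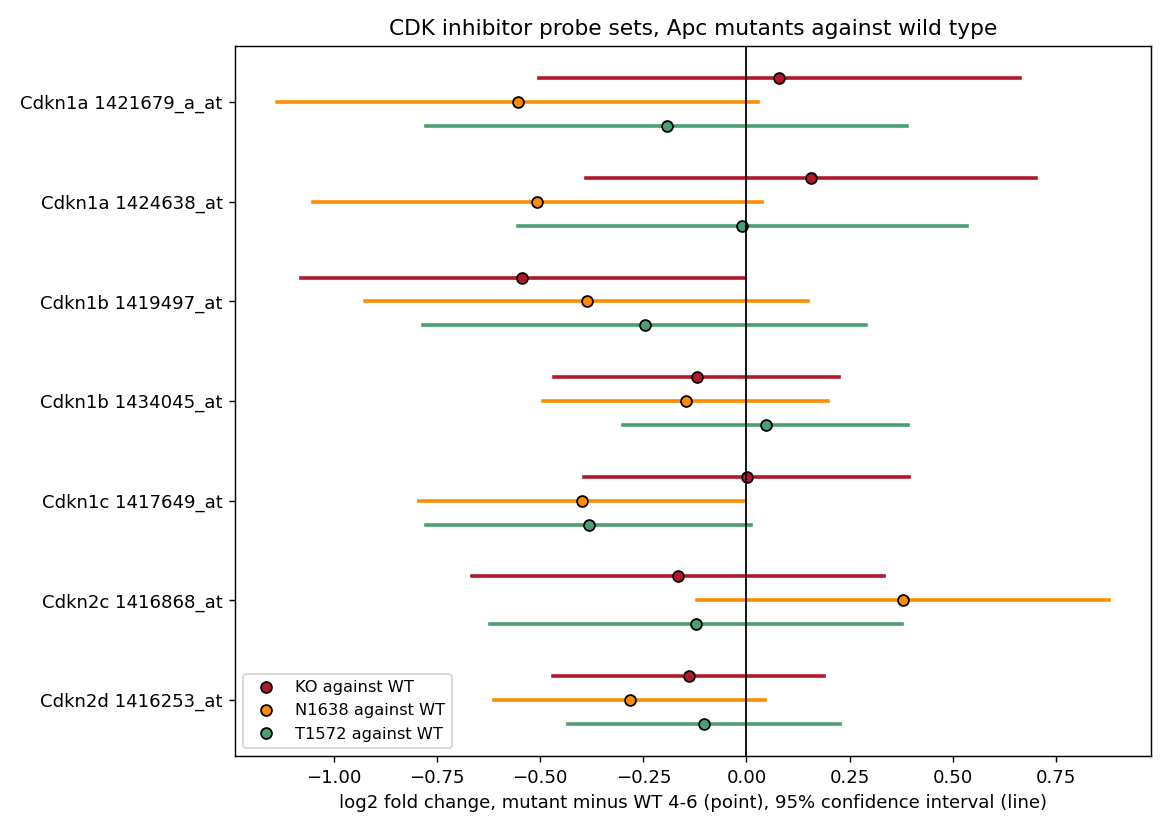
Log2 fold change against wild-type arrays 4 to 6 (x axis; point) with its 95% confidence interval (line) for each CDK inhibitor probe set (y axis) in 15lox/15lox (KO), 15lox/1638N (N1638) and 15lox/1572T (T1572). All but 2 of the 21 intervals include 0, and none of the differences was called.

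Cdkn1a, the p21 gene that p53 switches on after DNA damage, was read by 2 probe sets that moved together. The brighter one read 12.83, 12.55 and 13.01 on wild-type arrays 4 to 6, and 12.59, 12.73 and 13.12 on arrays 1 to 3. It read 13.09, 12.78 and 12.49 in 15lox/1572T, 12.44, 11.81 and 12.62 in 15lox/1638N and 12.94, 12.58 and 13.34 in 15lox/15lox. All groups overlapped on it except that 15lox/1638N array 2 lay below every other array. The order of the means was 15lox/15lox (12.95 ± 0.38, SD, n = 3), wild type (12.80 ± 0.23), 15lox/1572T (12.79 ± 0.30) and 15lox/1638N (12.29 ± 0.43). No neighbours in this order passed the test (15lox/1572T over 15lox/1638N by 0.50 ± 0.25, SE, adjusted p = 0.671), and that difference was 0.26 without 15lox/1638N array 2.

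In 15lox/1638N Cdkn1a was 0.51 lower than in wild type at the brighter probe set (SE 0.25, adjusted p = 0.349) and 0.55 lower at the dimmer (SE 0.27, adjusted p = 0.338). Without 15lox/1638N array 2 these differences were -0.27 and -0.33. At the dimmer, all 3 arrays (10.33, 9.75 and 10.52) lay below wild-type arrays 4 to 6 (10.78, 10.58 and 10.90). Ranges that do not overlap, in the lower direction, were found for 14.2% of all probe sets in that comparison. Against 15lox/15lox the difference at the brighter probe set was 0.66 ± 0.25 (SE; 15lox/15lox higher, unadjusted p = 0.0214, adjusted p = 0.546). It was 0.42 without 15lox/1638N array 2 and 0.47 without 15lox/15lox array 3. In 15lox/15lox itself Cdkn1a differed from wild type by 0.16 ± 0.25 and 0.08 ± 0.27 (SE) at the 2 probe sets, and by -0.08 and -0.18 with the Y-linked level as a covariate.

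A window 250 bases long before each annotated start of Cdkn1a, taken from RefSeq for assembly GRCm38.p6, was searched because p21 is the classic p53 target. Of the 5 genes 4 had such windows, 6 in all. The upstream of the 2 Cdkn1a windows, at chr17:29090729-29090978 on the plus strand, held 2 matches to the p53 half-site, shown in capitals.

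Cdkn1a: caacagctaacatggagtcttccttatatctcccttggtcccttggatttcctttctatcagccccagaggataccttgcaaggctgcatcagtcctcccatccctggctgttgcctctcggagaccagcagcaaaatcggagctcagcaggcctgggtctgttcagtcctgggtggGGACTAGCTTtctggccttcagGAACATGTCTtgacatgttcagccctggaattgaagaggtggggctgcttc

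A p53 half-site on either strand was found in 7.13% of all 32851 windows, and the other Cdkn1a window, at chr17:29093519-29093768, held none. Cdkn2d had 1 match, GGGCTTGCCT, in its window at chr9:21291210-21291459 on the minus strand. The TCF/LEF motif CTTTGA, which the partners of beta-catenin bind, was in none of the 6 windows and in 13.8% of all windows. The FOXO motif GTAAACA (3.17% of all windows) and the E2F motifs TTTCCCGC and TTTGGCGC (1.3% of all windows for the pair) were not in them either. The motifs do not overlap one another, both strands were searched, and a match is no evidence of binding.

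Cdkn1b, the p27 gene, is controlled largely through protein breakdown by the Skp2 ubiquitin ligase, and its transcription by FOXO factors. Its brighter probe set read 12.68, 12.43 and 12.63 on wild-type arrays 4 to 6, and 12.22, 12.48 and 12.93 on arrays 1 to 3. It read 12.76, 12.44 and 11.80 in 15lox/1572T, 12.09, 12.09 and 12.40 in 15lox/1638N and 12.50, 11.88 and 11.73 in 15lox/15lox. The 15lox/1638N arrays all lay below wild-type arrays 4 to 6, as a lower range did for 14.2% of all probe sets, while the other mutant groups overlapped them. The means ran down from wild type (12.58 ± 0.13, SD, n = 3) through 15lox/1572T (12.33 ± 0.49) and 15lox/1638N (12.19 ± 0.18) to 15lox/15lox (12.04 ± 0.41), and each step between neighbours was smaller than the larger of their SDs.

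In 15lox/15lox the difference from wild type at the brighter probe set was -0.54 ± 0.24 (SE; unadjusted p = 0.0478, adjusted p = 0.483). It was -0.39 without 15lox/15lox array 3 and -0.78 without array 1. The dimmer probe set of the same gene gave differences of -0.12 (15lox/15lox), -0.15 (15lox/1638N) and 0.05 (15lox/1572T), each with an SE of 0.16 and with adjusted p from 0.699 to 0.978. It read 11.80, 11.32 and 11.71 on wild-type arrays 4 to 6 and 11.59, 11.16 and 11.72 in 15lox/15lox, which overlap throughout.

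The 2 probe sets of Cdkn1b parted on 2 arrays. The brighter exceeded the dimmer by 0.88 to 1.11 on wild-type arrays 4 to 6 and by 0.68 to 1.05 on 7 of the 9 mutant arrays. It did so by 0.84 to 0.99 on wild-type arrays 1 to 3, which are not independent of arrays 4 to 6. On 15lox/15lox array 3 that excess was 0.01 and on 15lox/1572T array 3 it was 0.12. Over the 12 arrays the difference had an SD of 0.338, at percentile 81.4 among 2900 genes with 2 probe sets above the median level, whose median SD was 0.23. For Cdkn1a the SD was 0.142, at percentile 15.6. The lower Cdkn1b mean of 15lox/15lox at the brighter probe set rests partly on array 3, where the dimmer read 11.72, its highest value in that group. Which transcript parts the probe sets read was not used here.

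**Figure D3:**
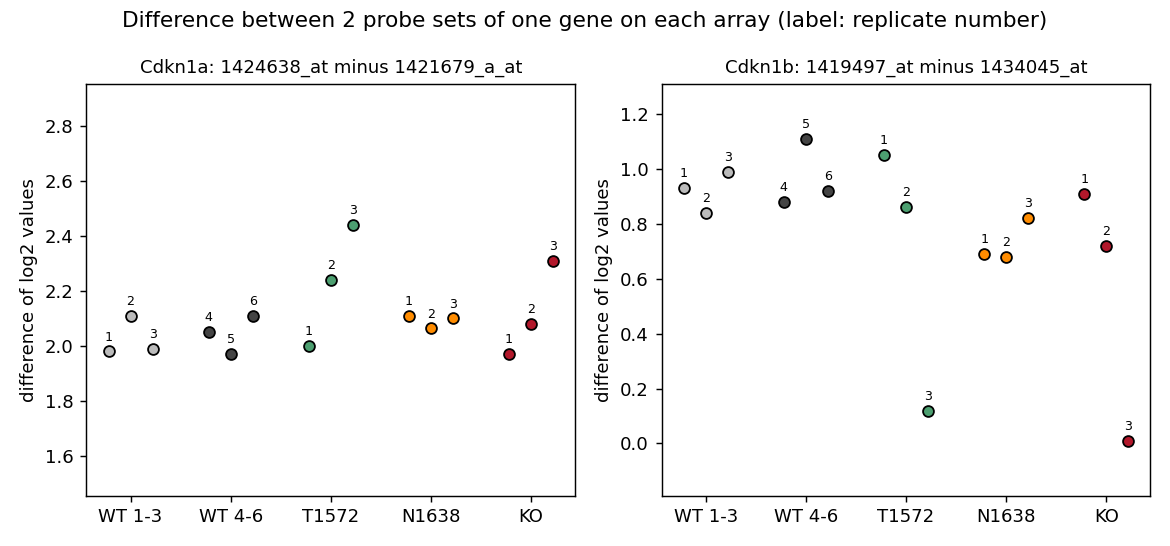
Difference between the log2 values of the 2 probe sets of Cdkn1a (left) and of Cdkn1b (right) on each array (y axis), by group (x axis), with the replicate number at each point. For Cdkn1b, array 3 of T1572 (15lox/1572T) and array 3 of KO (15lox/15lox) lie at 0.12 and 0.01, below all other arrays, which lie at 0.68 or more.

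The upstream window of Cdkn1b, at chr6:134920151-134920400 on the plus strand, is shown because its transcription is textbook FOXO control and the window has no exact FOXO match, so no base is in capitals.

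Cdkn1b: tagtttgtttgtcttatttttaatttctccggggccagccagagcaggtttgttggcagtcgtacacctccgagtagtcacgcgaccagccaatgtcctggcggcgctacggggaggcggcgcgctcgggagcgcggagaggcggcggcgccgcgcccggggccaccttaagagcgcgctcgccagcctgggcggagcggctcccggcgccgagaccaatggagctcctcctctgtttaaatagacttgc

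Cdkn1c, the imprinted p57 gene expressed in quiescent stem cells, was read by a probe set near the middle of all probe set means, at percentile 53.3. It read 7.34, 7.20 and 7.48 on wild-type arrays 4 to 6, and 7.25 to 7.36 on arrays 1 to 3. It read 6.82, 6.96 and 7.09 in 15lox/1572T, 6.80, 6.67 and 7.35 in 15lox/1638N and 7.62, 7.14 and 7.26 in 15lox/15lox. Every 15lox/1572T array lay below every wild-type and every 15lox/15lox array. Group ranges parted in the lower direction for 7.88% of all probe sets in 15lox/1572T against wild type, and in the higher direction for 5.27% in 15lox/15lox against 15lox/1572T.

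The means of Cdkn1c formed an upper pair, 15lox/15lox (7.34 ± 0.25, SD, n = 3) and wild type (7.34 ± 0.14), and a lower pair, 15lox/1572T (6.96 ± 0.14) and 15lox/1638N (6.94 ± 0.36). Against wild type the difference was -0.40 ± 0.18 (SE) in 15lox/1638N (unadjusted p = 0.0480, adjusted p = 0.308) and -0.38 ± 0.18 in 15lox/1572T (unadjusted p = 0.0560, adjusted p = 0.740). In 15lox/15lox it was 0.00 with a 95% confidence interval of -0.39 to 0.39. The 15lox/1638N value was -0.60 without array 3 of that group and -0.26 without array 2.

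Cdkn2c, the INK4 gene of p18, had its highest mean in 15lox/1638N, and no difference between groups passed the test. Its probe set read 9.12, 9.26 and 8.66 on wild-type arrays 4 to 6, and 8.92 to 9.11 on arrays 1 to 3. It read 8.96, 8.63 and 9.09 in 15lox/1572T, 9.47, 9.57 and 9.14 in 15lox/1638N and 9.10, 9.08 and 8.36 in 15lox/15lox. The 15lox/1638N arrays lay above all arrays of both other mutant groups and overlapped wild type. Such a higher range in 15lox/1638N was found for 7.04% of all probe sets against 15lox/1572T, and ranges parted in either direction for 14.0% against 15lox/15lox.

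The order of the Cdkn2c means was 15lox/1638N (9.39 ± 0.23, SD, n = 3), wild type (9.01 ± 0.32), 15lox/1572T (8.89 ± 0.24) and 15lox/15lox (8.85 ± 0.43). The difference of 15lox/1638N from wild type was 0.38 ± 0.23 (SE, adjusted p = 0.450), and 0.20 without wild-type array 6. That of 15lox/15lox from 15lox/1638N was -0.54 ± 0.23 (unadjusted p = 0.0352, adjusted p = 0.566), and -0.30 without 15lox/15lox array 3. That of 15lox/1638N from 15lox/1572T was 0.50 ± 0.23 (unadjusted p = 0.0494, adjusted p = 0.647).

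Cdkn2d, the INK4 gene of p19, had the smallest range of the 7 probe sets over the 12 arrays, 0.55 between the highest and the lowest, against 0.64 for the dimmer of Cdkn1b. Its probe set read 10.72, 10.56 and 10.57 on wild-type arrays 4 to 6, 10.62, 10.63 and 10.29 in 15lox/1572T, 10.24, 10.17 and 10.59 in 15lox/1638N and 10.57, 10.22 and 10.64 in 15lox/15lox. All groups overlapped. Means ran from 10.62 ± 0.09 (SD, n = 3) in wild type through 10.51 ± 0.19 in 15lox/1572T and 10.48 ± 0.23 in 15lox/15lox to 10.33 ± 0.23 in 15lox/1638N. The largest difference from wild type was -0.28 ± 0.15 (SE) in 15lox/1638N (adjusted p = 0.388).

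Across comparisons, the contrast of 15lox/15lox with 15lox/1638N held 4 of the 7 probe sets at an unadjusted p under 0.05, both of Cdkn1a with that of Cdkn1c and that of Cdkn2c, beside 8.67% of all probe sets. For 15lox/15lox against 15lox/1572T there were 0 of 7 (8.03% of all), and for 15lox/1638N against 15lox/1572T 1 of 7 (7.72%). None passed the adjustment, where the lowest adjusted p was 0.546. The means of Cdkn1a and Cdkn1c were the higher in 15lox/15lox and that of Cdkn2c in 15lox/1638N. The 2 probe sets of Cdkn1a are not separate evidence. Cdkn2c also ran opposite to the brighter of them (r = -0.82, and -0.71 within groups), so the 4 are not 4 separate results.

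Over the 12 arrays Pearson r between member probe sets ran from -0.82 to 0.94, as a description over arrays that also share their group. It was negative for Cdkn2c with both Cdkn1a probe sets, the dimmer of Cdkn1b, Cdkn1c and Cdkn2d, close to 0 (0.0027) for Cdkn2c with the brighter of Cdkn1b, and 0.23 or more for every pair without Cdkn2c. Cdkn2c ran opposite to Cdkn1a (brighter probe set; Pearson r = -0.82, Spearman rho = -0.76, and r = -0.71 after group means were removed). Without the 2 arrays farthest from the median of Cdkn1a, r was -0.63. Cdkn2d ran with Cdkn1a (r = 0.76, rho = 0.77, 0.79 within groups and 0.68 without 2 arrays). Both Cdkn1a probe sets correlated at r = 0.94, whereas the 2 Cdkn1b probe sets reached 0.36, and 0.88 without the 2 arrays farthest from the median of the brighter. The brighter probe set of Cdkn1a reached 0.26 with the brighter of Cdkn1b, 0.81 without the 2 arrays farthest from the median of Cdkn1a and 0.40 within groups, and 0.58 with the dimmer of Cdkn1b.

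**Figure D4:**
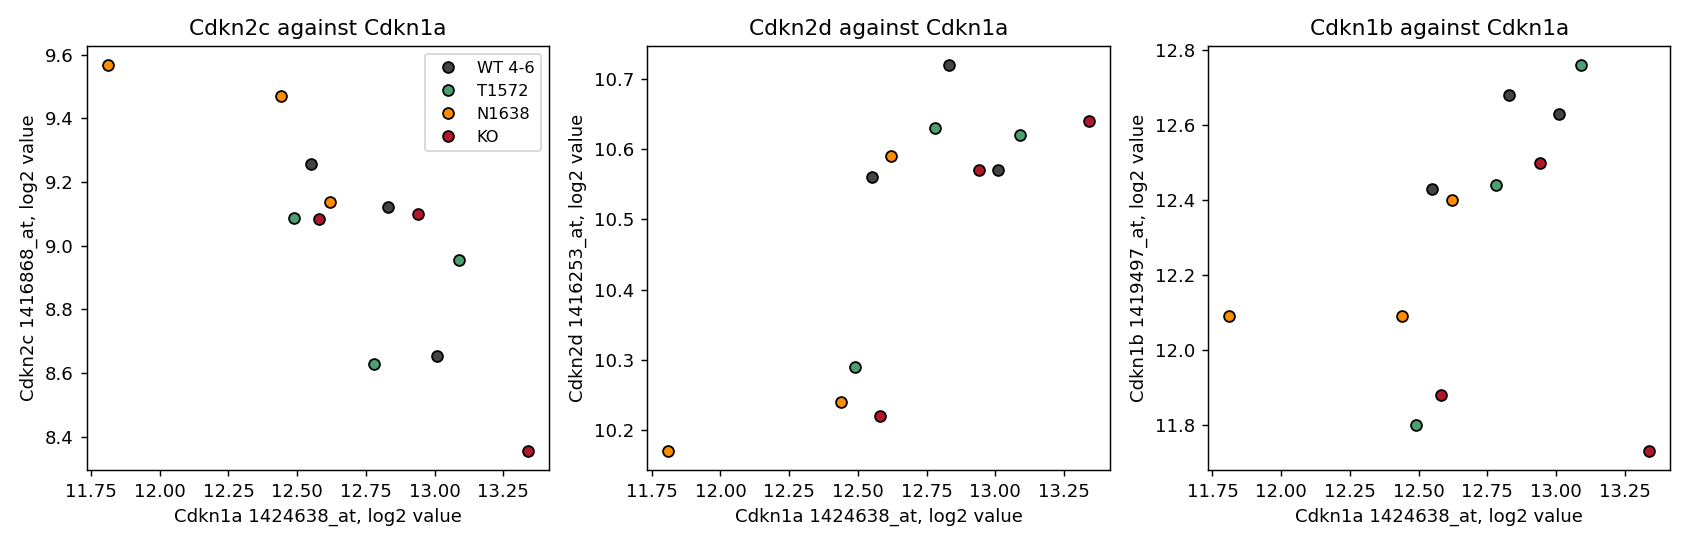
Log2 values of Cdkn2c, Cdkn2d and Cdkn1b (y axes) against Cdkn1a (x axes, brighter probe set) on the 12 arrays, coloured by group (wild-type arrays 4 to 6, T1572, N1638, KO). Cdkn2c falls as Cdkn1a rises (r = -0.82) and Cdkn2d rises with it (r = 0.76); 15lox/1638N (N1638) holds the 2 lowest Cdkn1a values, 11.81 and 12.44, and the 2 highest Cdkn2c values, 9.57 and 9.47.

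The genes most like each member were sought among 10701 genes above the median level, by Pearson r over the 12 arrays. Cdkn1a ran closest with Rec8, a meiotic cohesin (r = 0.96), Sqor, a mitochondrial sulfide oxidase (0.95), and Apobec1, a cytidine deaminase (0.95). For Cdkn1b they were Slc36a1 (0.93), Dennd1c (0.90) and Mrpl24 (0.90), and for Cdkn1c Jakmip1 (0.93), Praf2 (0.90) and Zcchc24 (0.89). For Cdkn2c they were Rpap3 (0.97), Tsen34 (0.97) and Tsfm (0.96). For Cdkn2d they were Acot13 (0.97), Tceanc (0.95) and the death receptor gene Fas (0.95). High values are reached by the best of many genes with 12 points.

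The INK4 genes outside the 5, Cdkn2a and Cdkn2b, were dim. Cdkn2a read 4.62 to 5.15 and Cdkn2b 5.01 to 5.51 on the 12 arrays, in the range where background makes up much of the signal, with overlap of all groups. Their differences from wild type lay between -0.11 and 0.13, and neither was called.

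Of 14 measured CDK and cyclin genes 0 were called in any of the 6 comparisons, with medians against wild type of -0.02 in 15lox/15lox, 0.07 in 15lox/1638N and -0.02 in 15lox/1572T. The medians of all genes, with 1 probe set per gene, were -0.05, -0.03 and -0.03. Called shares over all 18194 genes were 2.11%, 2.04% and 0.0495% in the same order, and 0.291%, 1.35% and 0.264% for 15lox/15lox against 15lox/1638N, 15lox/15lox against 15lox/1572T and 15lox/1638N against 15lox/1572T. Cdk4 differed from wild type by -0.05 to 0.11, Cdk6 by 0.05 to 0.12 and Cdk2 by -0.07 to 0.32. Cyclin E2 (Ccne2), which brings Cdk2 into S phase, read 10.29, 10.13 and 9.49 in 15lox/1638N against 9.26, 9.34 and 8.98 on wild-type arrays 4 to 6. All 3 lay above them, a difference of 0.78 ± 0.20 (SE, adjusted p = 0.0961). The genes of lowest p in the other groups were Ccna1 in 15lox/15lox (-0.20, adjusted p = 0.561) and Ccnb2 in 15lox/1572T (-0.30, adjusted p = 0.570).

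Of 17 pocket protein and E2F genes 0 were called, with medians of 0.03, 0.17 and 0.02. The called shares over all genes were 2.11%, 2.04% and 0.0495%. E2f8, a repressor of the E2F family, differed by 0.48 ± 0.13 (SE) in 15lox/1638N (adjusted p = 0.1001), E2f7 by 0.64 ± 0.21 in 15lox/15lox (adjusted p = 0.273) and Lin9 by 0.27 in 15lox/1572T (adjusted p = 0.693). Of 22 proliferation markers 0 were called in any of the 3 comparisons, with differences from -0.30 to 0.32. Lowest in p were Aurka in 15lox/15lox (-0.22, adjusted p = 0.643), Rrm2 in 15lox/1638N (0.30, adjusted p = 0.252) and Bub1b in 15lox/1572T (-0.30, adjusted p = 0.600). Ki-67 (Mki67) differed by 0.02, -0.15 and -0.08 in 15lox/15lox, 15lox/1638N and 15lox/1572T.

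Of 15 genes for the turnover of CDK inhibitors 1 rose in 15lox/15lox, where 2.11% of all genes were called in either direction. Skp1, the adaptor of the SCF ubiquitin ligase that degrades p27, read 13.61, 13.37 and 13.68 against 13.04, 13.03 and 12.87 on wild-type arrays 4 to 6, above all of them (0.57 ± 0.10, SE, adjusted p = 0.0183). The call was lost without any single wild-type array 4 to 6, without 15lox/15lox array 1 or 3, with only these 2 groups in the fit and with the Y-linked covariate, with an adjusted p of at most 0.128. The F-box protein Skp2 itself differed by 0.69 ± 0.24 in 15lox/1638N (adjusted p = 0.191) and by 0.12 in 15lox/15lox. In 15lox/1572T Cul1 had the lowest p (-0.16, adjusted p = 0.796).

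Of 22 p53 pathway genes Pmaip1, which encodes the apoptosis promoter Noxa, rose in 15lox/15lox and in 15lox/1638N, and 0 fell. Of all genes 2.11% and 2.04% were called in these groups in either direction. It read 10.97, 10.71 and 10.79 on wild-type arrays 4 to 6, 11.70, 11.44 and 11.44 in 15lox/15lox and 11.63, 11.40 and 11.54 in 15lox/1638N, all above wild type. The differences were 0.70 ± 0.15 (SE, adjusted p = 0.0400) and 0.70 ± 0.15 (adjusted p = 0.0454), and 0.50 ± 0.15 in 15lox/1572T (adjusted p = 0.490). The first 2 share their control arrays and were lost in 11 and 10 of 23 alternatives. Both were lost without any wild-type array 4 to 6, any 15lox/1638N array, 15lox/15lox array 1 or 2 or 15lox/1572T array 3, and with the Y-linked covariate, and the first also without 15lox/15lox array 3 (adjusted p up to 0.231 and 0.165). In 15lox/1638N 5 of the 22 lay above 0 and the list median was -0.32, beside -0.03 for all genes. In 15lox/15lox that median was -0.04 and in 15lox/1572T -0.06.

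Of 28 regulators of CDK inhibitor genes 1 rose in 15lox/15lox and 1 fell in 15lox/1638N, beside 2.11% and 2.04% of all genes called in either direction. Ets2, an activator of Cdkn2a in human cells, rose by 0.44 ± 0.08 (SE, adjusted p = 0.0242), from 12.79 to 12.83 on wild-type arrays 4 to 6 to 13.13 to 13.33. That call was lost without any wild-type array 4 to 6, or 15lox/15lox array 1 or 2, with only the 2 groups in the fit and with the Y-linked covariate (adjusted p up to 0.111). The receptor Notch1 fell by 0.91 ± 0.15 in 15lox/1638N (adjusted p = 0.0151), from 12.62 to 12.92 on wild-type arrays 4 to 6 to 11.62 to 11.93, a call lost without any wild-type array 4 to 6 or 15lox/1638N array 2 (adjusted p up to 0.0706). In 15lox/1572T its difference was -0.52 (adjusted p = 0.486). Foxo3, an activator of Cdkn1b, differed by -0.18 to 0.05 and was not called. Foxo1, another FOXO factor, read 9.67, 9.14 and 9.92 in 15lox/1638N against 10.41, 10.23 and 10.88 on wild-type arrays 4 to 6, all below them. The difference was -0.93 ± 0.34 (SE, adjusted p = 0.210), and it was -0.13 in 15lox/15lox and -0.15 in 15lox/1572T. Foxo4 differed by -0.33 in 15lox/1638N (adjusted p = 0.207), with overlap of the groups. Myc, a repressor of Cdkn1a and Cdkn2b, differed by -0.24, 0.66 and 0.25 in 15lox/15lox, 15lox/1638N and 15lox/1572T with an SE of 0.42.

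Of 27 stem cell quiescence genes 1 rose in 15lox/15lox, and 2 rose and 1 fell in 15lox/1638N. The called shares over all genes, in either direction, were 2.11% and 2.04%. Tek, the angiopoietin receptor that holds stem cells quiescent, rose in both groups. It read 8.07, 7.57 and 8.26 on wild-type arrays 4 to 6, 9.76, 10.89 and 9.93 in 15lox/15lox and 10.44, 10.27 and 10.41 in 15lox/1638N. The differences were 2.23 ± 0.27 (SE, adjusted p = 0.00130) and 2.41 ± 0.27 (adjusted p = 0.00186), and both calls held in all 23 alternatives. Tek in 15lox/1572T read 8.22, 8.71 and 8.20, below both other mutant groups (adjusted p = 0.00698 and 0.0152).

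The nuclear receptor Nr4a2 rose by 0.77 ± 0.13 (SE, adjusted p = 0.0204) in 15lox/1638N, and by 0.28 with the mean of its probe sets, which ended the call. It was also lost with the replicate block and without any of 5 single arrays, namely wild-type arrays 4 to 6 and 15lox/1638N arrays 1 and 2. Gprasp2 fell by 1.27 ± 0.26 (adjusted p = 0.0441), a call lost in 11 of 23 alternatives (adjusted p up to 0.183), and differed by -1.06 in 15lox/1572T (adjusted p = 0.391). The call was lost with quantile normalization, with the Y-linked covariate and without any wild-type array 4 to 6, any 15lox/1638N array, 15lox/15lox array 1 or 15lox/1572T array 2 or 3.

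Of 17 other growth arrest genes 1 rose in 15lox/15lox, beside 2.11% of all genes called in either direction. Gadd45g, a stress-induced partner of p21 and PCNA, read 11.05, 10.96 and 11.00 in 15lox/15lox, against 9.04, 8.47 and 9.48 on wild-type arrays 4 to 6, 8.86, 8.78 and 9.81 in 15lox/1638N and 9.47, 9.13 and 9.05 in 15lox/1572T. Every 15lox/15lox array lay above every other array. The difference from wild type was 2.01 ± 0.29 (SE), a 4.02-fold rise (adjusted p = 0.00372), and the call held in all 23 alternatives. The gene was also higher in 15lox/15lox than in 15lox/1638N (1.86, adjusted p = 0.0325) and 15lox/1572T (1.79, adjusted p = 0.0104). Cables1, whose protein binds Cdk5 and Abl, differed by -0.97 ± 0.21 in 15lox/1638N (adjusted p = 0.0562) and by -0.40 in 15lox/1572T (adjusted p = 0.777).

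**Figure D5:**
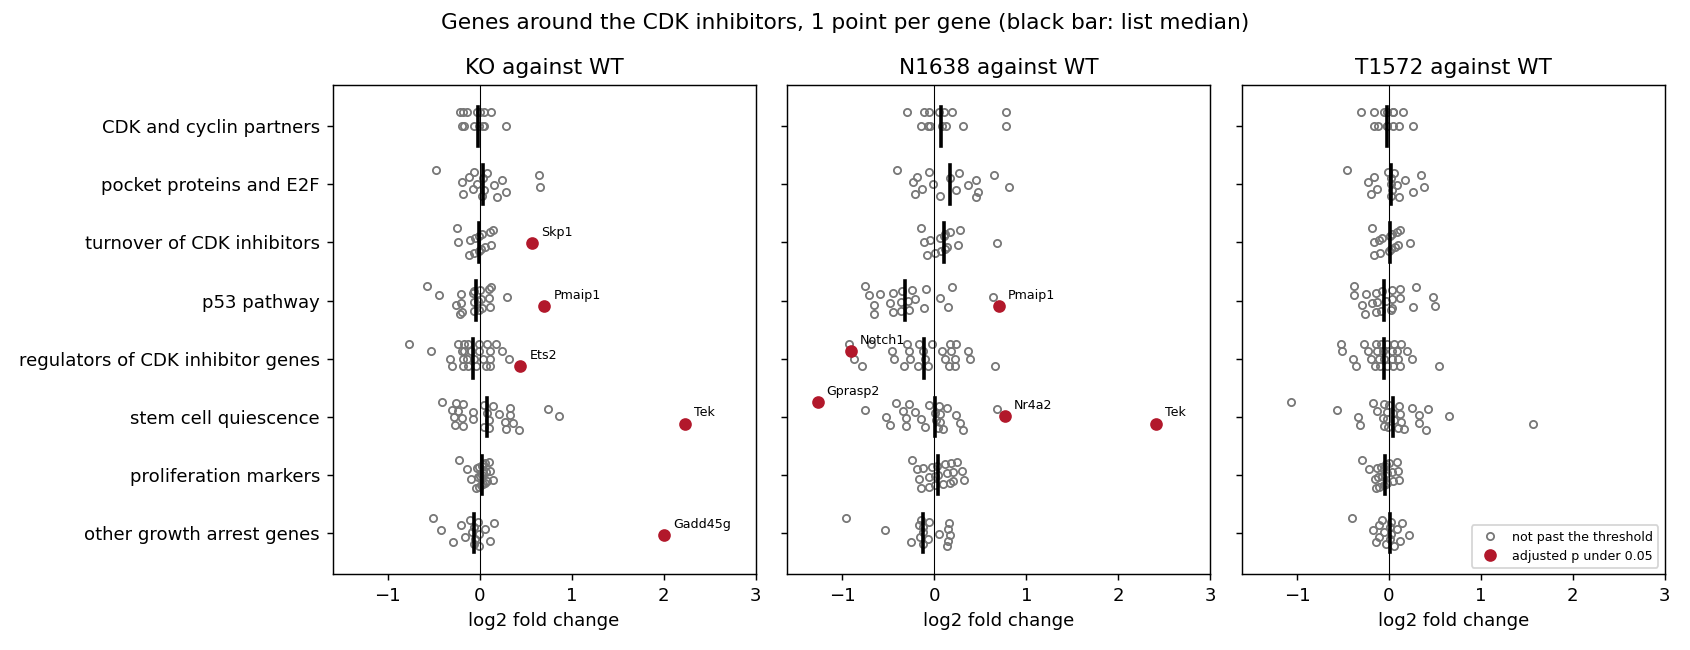
Log2 fold change against wild-type arrays 4 to 6 (x axis) of the genes of 8 lists (y axis), 1 point per gene, for KO (15lox/15lox), N1638 (15lox/1638N) and T1572 (15lox/1572T). Filled points with names were called, black bars are list medians; Tek and Gadd45g lie farthest right in KO, at 2.23 and 2.01.

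Markers of other cell types differed between groups beside these results. The called shares over all genes were 2.11% in 15lox/15lox, 2.04% in 15lox/1638N and 0.0495% in 15lox/1572T. All 6 dendritic cell markers were lower in each mutant group at an unadjusted p under 0.05, where 11.7%, 19.2% and 7.43% of all genes lay. Of these markers 1, 3 and 0 were called in 15lox/15lox, 15lox/1638N and 15lox/1572T. Their mean level per array ran from 8.87 to 10.57 in wild type and, without overlap, from 6.84 to 7.55 in 15lox/1638N, 7.54 to 8.70 in 15lox/15lox and 7.61 to 8.83 in 15lox/1572T. The monocyte gene Cd14 rose in all 3 mutant groups, by 2.45 (15lox/15lox), 3.56 (15lox/1638N) and 2.53 (15lox/1572T), and 3, 2 and 1 of 6 monocyte markers rose. The mean of 6 monocyte markers ran from 9.35 to 9.60 in wild type and lay above that in 15lox/1638N (9.77 to 10.37), 15lox/15lox (9.87 to 10.76) and 15lox/1572T (9.83 to 10.22). Of these 6 markers 4, 3 and 4 lay above wild type in 15lox/15lox, 15lox/1638N and 15lox/1572T, with medians of 0.73, 0.27 and 0.215. In each of the last 2 groups 1 marker was lower at an unadjusted p under 0.05. The mean therefore does not stand for a rise of the whole list. The mean of 5 T lineage markers was 5.40 to 5.56 in wild type and 4.96 to 5.13 in all mutant groups, close to the level where background makes up much of the signal. In each mutant group 1 of the 5 was called lower (-1.28 in 15lox/15lox, -1.45 in 15lox/1638N and -1.265 in 15lox/1572T). The medians of the 5 were -0.21, -0.14 and -0.28. The B lineage mean was lower than in wild type (6.46 to 6.79) in 15lox/15lox (5.85 to 6.28) and 15lox/1638N (5.64 to 5.98) and overlapped it in 15lox/1572T. The neutrophil progenitor mean lay above wild type (12.70 to 12.92) in 15lox/1638N (12.96 to 13.16) and 15lox/1572T (13.004 to 13.406) and overlapped it in 15lox/15lox. The mast cell and basophil mean of 15lox/1572T (10.28 to 10.58) lay above wild type (9.66 to 10.19), and the LSK marker mean of 15lox/15lox (10.38 to 10.56) above 9.85 to 10.09. Of 8 LSK markers 6 lay above wild type in 15lox/15lox (median 0.28), and only Tek was called (2.23). Of 5 B lineage markers 1 was called lower in each of 15lox/15lox (median -0.20) and 15lox/1638N (-0.51), and 1 lay above wild type. Of 5 neutrophil progenitor markers 4 lay above in 15lox/1638N (median 0.09, 2 called) and 5 in 15lox/1572T (0.23, 0 called). Of 6 mast cell and basophil markers 5 lay above in 15lox/1572T (0.34, 0 called). Erythroid and megakaryocyte means overlapped wild type in every mutant group. The part of such cells in the values of the CDK inhibitors was not tested.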

How the data were processed

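The authors deposited 1 log2 value per probe set and array; the log2 scale was read from the range and quartiles of the values. RMA and the build mm9 appear in the submitters' processing notes, without role or version, and no source used here states further steps. No column of another series was present (0). Of the probe sets 34958 had 1 gene symbol in the platform annotation, 932 several and 9211 none. The 12 arrays of the 4 groups (wild-type arrays 4 to 6) were fitted in limma 3.58.1 (R 4.3.3; lmFit, eBayes; 8 residual degrees of freedom) over all probe sets, without filter or further normalization, with two-sided tests, Benjamini-Hochberg adjustment and a threshold of 0.05. Other genes were read at the probe set of highest mean. The number of arrays limits the precision. The method was tested on simulated data.

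All member probe sets were named. Of each gene list and comparison with wild type, up to 4 called genes of lowest p were named, or else the gene of lowest p, with Cdkn2a, Cdkn2b, Foxo3, Skp2, Cdk2, Cdk4, Cdk6, Myc and Axin2 whatever their values. Marker lists are given as counts, medians and ranges, naming Cd14, Kit, Cd34, Flt3 and Tek alone. Mki67, Foxo1, Foxo4 and the comparisons of list genes between mutant groups were chosen after their values were seen. Trp53 was not analysed here. The members and lists were chosen with earlier results of these data known. Alternatives covered the control arrays, the arrays in the fit, a filter on dim probe sets, normalization, eBayes options, array weights, the Y-linked level (3 genes), the replicate number as a block, the probe sets of a gene, the threshold, and each array left out.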

Additional observations from a re-analysis of the deposited data

How the results depend on the processing

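The count of called CDK inhibitor probe sets was 0 in all 6 comparisons under all 23 alternatives, leaving out single arrays included (0 to 0). None of the 954 alternative values of member probe sets passed the threshold, and 42 of them, from 17 of the 42 results, turned sign. Of these results 1 had a value over 0.2 in size. With the Y-linked covariate Cdkn1a in 15lox/15lox against wild type was -0.18 (dimmer probe set) and -0.081 (brighter), and Cdkn2c against 15lox/1572T was 0.033. With array weights 15lox/1572T against wild type was 0.068 and 0.14 for these Cdkn1a probe sets and -0.0055 for the dimmer of Cdkn1b. The same weights gave -0.035 for the brighter of Cdkn1a and 0.066 for Cdkn2c in 15lox/15lox against 15lox/1572T, and 0.0046 for Cdkn1c in 15lox/1638N against 15lox/1572T. With the mean of the probe sets Cdkn1b was -0.065 in 15lox/15lox against 15lox/1638N and -0.10 in 15lox/1572T against wild type. With quantile normalization Cdkn1c in 15lox/15lox against wild type was -0.037. The causes were not tested.

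All member results not listed in this paragraph kept their sign when any single array was left out. The values that follow, first those against wild type, are the leave-one-out ranges of the results that turned sign. In 15lox/15lox they were -0.018 to 0.25 (dimmer of Cdkn1a), -0.037 to 0.34 (brighter), -0.265 to 0.045 (dimmer of Cdkn1b), -0.14 to 0.099 (Cdkn1c) and -0.34 to 0.08 (Cdkn2c). In 15lox/1572T they were -0.46 to 0.062 and -0.16 to 0.14 for Cdkn1a in the same order, -0.46 to 0.02 (brighter of Cdkn1b), -0.098 to 0.14 (dimmer), -0.30 to 0.01 (Cdkn2c) and -0.16 to 0.0083 (Cdkn2d). Between 15lox/15lox and 15lox/1572T they were -0.027 to 0.35 (brighter of Cdkn1a), -0.18 to 0.20 (Cdkn2c) and -0.15 to 0.092 (Cdkn2d). Between 15lox/1638N and 15lox/1572T they were -0.41 to 0.073 (brighter of Cdkn1b) and -0.22 to 0.12 (Cdkn1c), and for the dimmer of Cdkn1b between 15lox/15lox and 15lox/1638N -0.088 to 0.19.

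The number of all probe sets called depends on the control arrays. With all 6 wild-type arrays it was 1951 against 674 in 15lox/15lox, 3912 against 623 in 15lox/1638N and 283 against 13 in 15lox/1572T. Wild-type arrays 1 to 3 are not independent of arrays 4 to 6, so the fit with all 6 can understate the SE. With array weights these counts were 1124, 3443 and 92, with the Y-linked covariate 333, 385 and 9, and with only the 2 groups compared 569, 1135 and 1. They were 387 to 753, 159 to 882 and 7 to 25 when single arrays were left out, lowest in 15lox/15lox and 15lox/1638N without wild-type array 4. The titles' replicate numbers were not taken as pairs, since not every same-numbered pair of mutant arrays correlated over 0.1 in its deviations (6 of 9 did; -0.07 to 0.38). The same number correlated best in 14 of 18 cases, a hint of pairing from the data. With the replicate block on all 15 arrays 0 member probe sets were called in each comparison, and the comparisons with wild type then rest on wild-type arrays 1 to 3. In 15lox/15lox against 15lox/1638N the block gave unadjusted p = 0.0165 (adjusted p = 0.324) for the brighter of Cdkn1a, 0.0381 (adjusted p = 0.394) for the dimmer and 0.0282 (adjusted p = 0.368) for Cdkn2c, with the differences as before. For Cdkn1c the block gave 0.0416 (adjusted p = 0.401) there, and 0.0485 (adjusted p = 0.515) in 15lox/15lox against 15lox/1572T. Counts of all called probe sets under the block were 692, 1045 and 31 against wild type.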
